A study of Homo sapiens with 372 samples.

Results

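The genes described here are the cyclins, kinases and inhibitors that carry a cell through G1, the gap phase before DNA is copied. They are CCND1, CCND2, CCND3, CCNE1, CCNE2, CDK2, CDK4, CDK6, CDKN1B and CDKN2C, 10 genes chosen by name for their place in the pathway, with no measured value in the rule. Of these, 8 were found by symbol among the 9664 genes of the expression table, and CCNE2 and CDK6 were not analysed here. All 8 passed the authors' detection limit, more than 30% of the cells of at least 1 condition. CDK2 fell under that share in 1 condition (29.5% of the cells given celecoxib for 16 h), and the other 7 exceeded it in all 6 conditions.

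The measurements are from A2780, an established human cell line grown from an ovarian endometrioid adenocarcinoma. Single cells were captured on the Fluidigm C1 system and processed by Smart-seq2, which copies polyA-tailed RNA over its length and keeps no record of the strand. The 46 control cells have no drug named, and the treatments were 5 nM paclitaxel for 16 h (Pac16, 56 cells) or for 48 h (Pac48, 53 cells), 75 µM celecoxib for 2 h (Cele2, 63 cells) or for 16 h (Cele16, 61 cells), and both at these doses for 16 h (Combo16, 59 cells). Paclitaxel stabilises microtubules and celecoxib inhibits cyclooxygenase. No replicate culture or capture run is named for any condition, so a condition counts here as 1 sample. Cells are not its replicates, and no test, p-value or standard error was made. Effects of condition and of culture or capture cannot be told apart.

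In the textbook account, D cyclins appear when growth factors signal, bind CDK4 or CDK6 and begin to phosphorylate the retinoblastoma protein RB. RB then releases E2F factors, which switch on cyclin E and the genes of DNA synthesis, and cyclin E with CDK2 completes the phosphorylation and carries the cell into S phase. CDKN2C (p18) binds CDK4 and CDK6, whereas CDKN1B (p27) binds cyclin complexes and holds CDK2 inactive. Much of this control acts on protein turnover and phosphorylation, which RNA levels do not measure.

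The deposited E-value of a gene in a cell is log2(N/10 + 1), where N is the TPM (a level per transcript length) scaled by that of the highest spike-in RNA of the same cell. A gene was called higher or lower when the treated and control means of its E-value were more than log2 of 1.5 apart, which is 0.58. All differences are on this log2(N/10 + 1) scale, which understates changes of weakly expressed genes, and all treatments are set against the same 46 control cells. Differences are given on 2 scales unless 1 is named. They are as deposited and at "the same total". In the latter the linear values of all cells are brought to a common total, which takes out the spike-in scaling. The choice matters because the median difference of all genes on the deposited scale was −0.41 and −0.26 in Pac16 and Pac48, −0.26 and −0.48 in Cele2 and Cele16, and 0.33 in Combo16. At the same total it was −0.07, 0.00, −0.02, 0.03 and 0.02 in that order.

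Reads per cell are not known. The median number of genes detected per cell was between 6126 and 6630 in the 6 conditions, and the control cells had the highest median. Against the control median, the median log2 total of a cell was −0.99 and −0.64 in Pac16 and Pac48, −0.76 and −1.52 in Cele2 and Cele16, and 0.49 in Combo16. Of the markers of cell type looked up, the mesenchymal VIM had mean E-values from 1.90 to 3.70 and the epithelial KRT18 from 0.45 to 1.11. LYZ of leukocytes did not exceed 0.24 and COL1A2 of fibroblasts 0.96. By detection the order was another, with VIM in 74.0% of cells, LYZ in 51.2%, KRT18 in 28.4% and COL1A2 in 21.9%. Epithelial markers other than KRT18, and the ovarian and endothelial markers, were not analysed here.

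CDK4 and CCNE1 are shown with the 250 bases upstream of their RefSeq start on GRCh38.p14, because CDK4 was the most abundant of the genes, CCNE1 is the textbook E2F target among them, and each has 1 start in the table of promoters. Capitals mark the E-box CACGTG, the site of MYC and related factors, in CDK4, and the E2F core TCCCGC or its reverse complement GCGGGA in CCNE1. The CDK4 window is chr12:57752311-57752560 on the minus strand and the CCNE1 window is chr19:29811741-29811990 on the plus strand, both written 5′ to 3′ in the direction of transcription.
CDK4: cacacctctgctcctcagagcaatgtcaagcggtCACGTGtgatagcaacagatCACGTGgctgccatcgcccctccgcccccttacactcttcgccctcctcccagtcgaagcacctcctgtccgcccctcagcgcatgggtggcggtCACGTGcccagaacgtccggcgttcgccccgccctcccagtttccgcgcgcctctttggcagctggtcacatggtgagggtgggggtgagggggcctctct
CCNE1: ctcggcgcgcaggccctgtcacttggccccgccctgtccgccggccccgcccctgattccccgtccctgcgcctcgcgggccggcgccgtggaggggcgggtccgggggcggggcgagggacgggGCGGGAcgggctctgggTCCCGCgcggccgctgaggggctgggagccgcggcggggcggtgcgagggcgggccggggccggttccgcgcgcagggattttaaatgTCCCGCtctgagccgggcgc
The CDK4 window held 3 E-boxes and 0 E2F cores, and the CCNE1 window 3 E2F cores and 0 E-boxes. Among 35116 windows of this length in the table, searched on both strands, 6.35% held the E-box and 23.5% the E2F core. These are matches of letters and not measured sites.

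In the control cells the 8 genes spanned almost the whole range of expression. By the mean linear value N, which is per transcript length and can be compared between genes, CDK4 was the highest at 634.6 normalised TPM, followed by CCND1 (142.9), CCNE1 (72.7), CCND3 (51.8), CDK2 (39.3), CCND2 (36.7), CDKN2C (18.2) and CDKN1B (3.05). The mean linear value of CDK4 exceeded that of 95.0% of the listed genes and that of CDKN1B 7.57%. A control cell had a median of 6 of the 8 genes detected (range 2 to 8), and the median was 5 in each of the treatments, with the same range. On hg38, CCND2 (4269771 to 4305353), CDKN1B (12685498 to 12722369) and CDK2 (55966781 to 55972789) also lie on chromosome 12, CCND1 on chromosome 11 (69641156 to 69654474), CCND3 on chromosome 6 (41934934 to 42050357), CCNE1 on chromosome 19 (29811991 to 29824312) and CDKN2C on chromosome 1 (50960745 to 50974634). All of these but CCNE1 overlap a gene on the opposite strand that was not analysed here, and reads of such a pair cannot be told apart by strand. The plot of the E-values of every cell shows the spread behind these means.

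**Figure D1:**
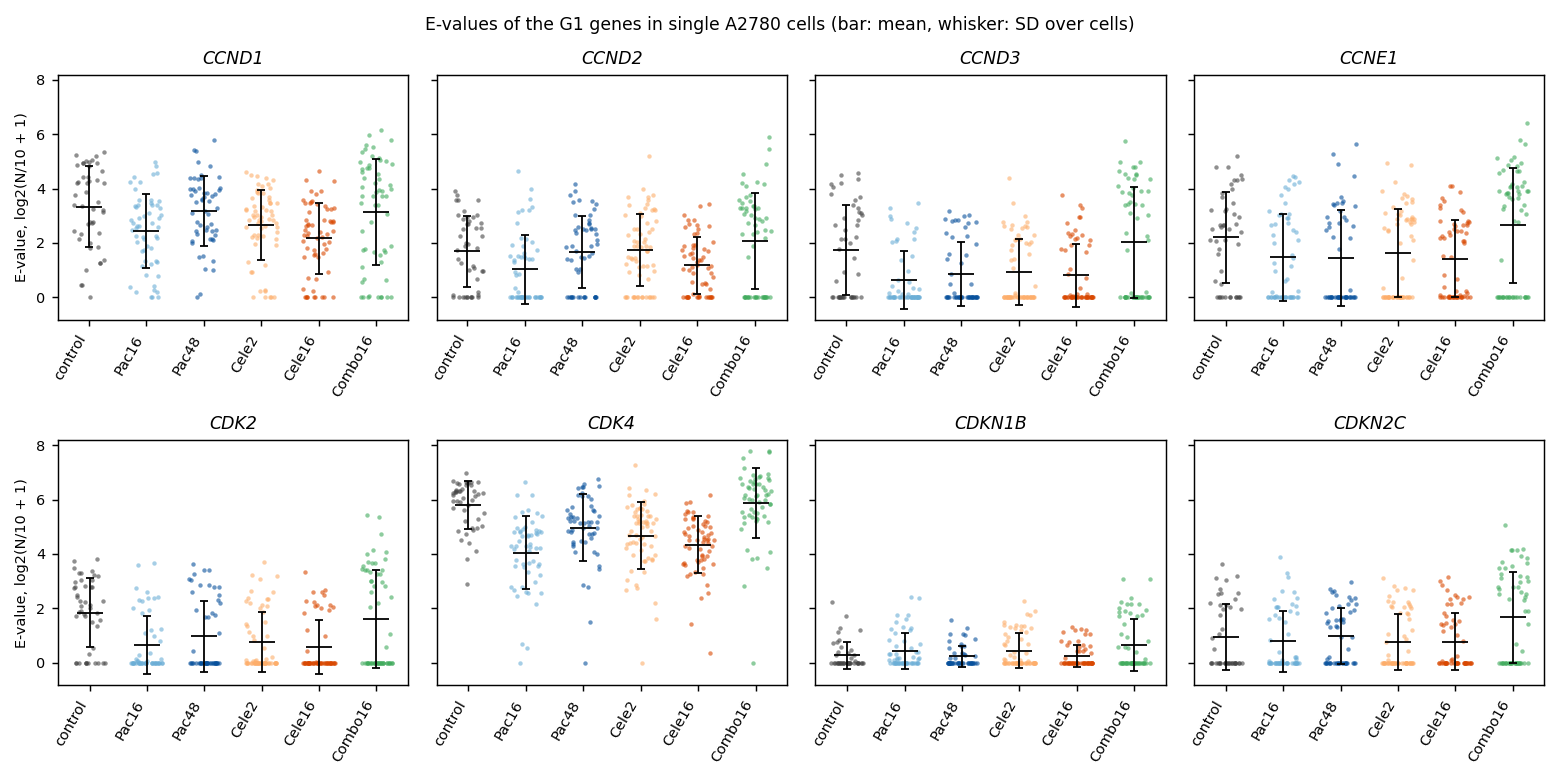
E-values, log2(N/10 + 1), of the 8 genes in each of the 338 cells by condition (points), with the mean (bar) and SD over cells (whisker). CDK4 lay above 2 in nearly every cell, with condition means from 4.05 to 5.86, whereas CDKN1B means stayed between 0.23 and 0.65 and CCND2, CCND3, CCNE1, CDK2 and CDKN2C had many cells at 0.

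The D cyclins are taken first. CCND1, the cyclin most tied to growth factor signals, was the main D cyclin of the cells. Its E-value ran from 0.00 to 5.34 over control cells with a median of 3.44. The medians were 2.60 in Pac16, 3.51 in Pac48, 2.90 in Cele2, 2.35 in Cele16, and 3.72 in Combo16, where the highest cell reached 6.17. All ranges began at 0.00 and overlapped.

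The mean E-value of CCND1 was 3.34 ± 1.48 (SD over cells, as for every SD given here, n = 46) in the control, 2.43 ± 1.36 (n = 56) in Pac16 and 2.17 ± 1.31 (n = 61) in Cele16. The differences from the control were −0.91 and −1.17, and at the same total −0.29 and −0.15, so neither passed the limit on both scales. In Cele2 the difference was −0.67, and −0.23 at the same total. In Pac48 CCND1 was 0.16 below the control on the deposited scale (difference −0.16) but 0.38 above it at the same total. In Combo16 it was −0.20 as deposited and −0.69 at the same total, the only CCND1 difference past the limit on that scale, and 43 of 59 cells then lay below the control median.

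CCND2 was the D cyclin whose widest difference from the control was smallest, −0.66 as deposited and −0.35 at the same total, both in Pac16. Its mean E-value was 1.69 ± 1.31 in the control, 1.03 ± 1.27 and 1.68 ± 1.33 in Pac16 and Pac48, 1.75 ± 1.32 and 1.17 ± 1.04 in Cele2 and Cele16, and 2.07 ± 1.77 in Combo16. In Cele16 the direction turned with the scaling, from −0.52 to 0.19. CCND2 was detected in 36 of 46 control cells (78.3%, exact Clopper-Pearson 95% interval 63.6 to 89.1%) and in 29 of 56 cells in Pac16 (51.8%, 38.0 to 65.3%). All intervals of this kind leave out every error except that of counting cells.

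CCND3 had a mean below that of the control under each single drug on both scales. Its E-value had a median of 1.89 in control cells (range 0.00 to 4.56) and a median of 0.00 in Pac16 and Pac48 and in Cele2 and Cele16, with highest cells of 3.49, 3.18, 4.40 and 3.78. In Combo16 the median was 2.10 and the highest cell 5.75. The mean was 1.75 ± 1.66 in the control, 0.63 ± 1.06 and 0.86 ± 1.19 in Pac16 and Pac48, 0.93 ± 1.22 and 0.81 ± 1.17 in Cele2 and Cele16, and 2.02 ± 2.04 in Combo16.

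The differences of CCND3 from the control were −1.12 and −0.89 in Pac16 and Pac48 and −0.82 and −0.93 in Cele2 and Cele16. At the same total they were −0.74, −0.54, −0.49 and −0.32, of which that in Pac16 passed the limit. In Combo16 the difference was 0.27 as deposited and 0.00 at the same total. CCND3 was detected in 28 of 46 control cells (60.9%, 45.4 to 74.9%) and in 23 of 56 cells in Pac16 (41.1%, 28.1 to 55.0%).

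The makeup of the D cyclin pool does not depend on a factor common to all cells of a condition, but it does depend on how single cells are scaled. The mean linear levels of CCND1 and CCND3 in Cele16 were 0.378 and 0.306 times those of the control as deposited. At the same total they were 0.934 and 0.956 times. The shares that follow are as deposited. CCND1 contributed 61.8% of the summed mean linear value of the 3 D cyclins in the control, 66.8% and 68.9% in Pac16 and Pac48, 56.1% and 60.4% in Cele2 and Cele16, and 51.1% in Combo16. The share of CCND3 was 22.4% in the control, 11.4% and 9.52% with paclitaxel, 13.7% and 17.7% with celecoxib, and 26.4% in Combo16. CCND2 held 15.9% in the control and between 21.6% and 30.1% in the treatments, highest in Cele2. CCND1 was the highest of the 3 in 32 of 46 control cells and in 33 of 59 cells in Combo16. The summed level of the 3 was 231.4 normalised TPM in the control, 104.6 in Pac16, 89.4 in Cele16 and 321.5 in Combo16.

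CDK4, the kinase partner of the D cyclins, was detected in every control cell (46 of 46) and in 334 of all 338 cells. Its E-value ran from 2.90 to 6.99 over control cells with a median of 6.15. The medians were 4.30 in Pac16, 5.17 in Pac48, 4.99 in Cele2, 4.50 in Cele16, and 6.13 in Combo16. In Pac16, 53 of 56 cells lay below the control median, and in Cele16, 60 of 61 cells, though the highest cells, 6.63 and 6.16, were within the control range.

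The mean of CDK4 was 5.80 ± 0.89 in the control, 4.05 ± 1.34 and 4.97 ± 1.24 in Pac16 and Pac48, 4.68 ± 1.23 and 4.34 ± 1.06 in Cele2 and Cele16, and 5.86 ± 1.29 in Combo16. The difference in Pac16 was −1.75, or −1.96 control SDs, and 0.642% of the 9664 genes had a lower difference. At the same total it was −0.99 (−1.54 control SDs), with 1.73% of genes lower. An E-value cannot fall below 0, so weakly expressed genes could not reach such differences, and these ranks depend on the level of a gene. CDK4 was thus past the limit in Pac16 on both scales, and the mean linear level in the control was 2.87 times that in Pac16 as deposited and 1.77 times at the same total.

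In the other treatments the CDK4 difference rested on the scaling. In Cele16 it was −1.46 as deposited and −0.12 at the same total, and in Pac48 −0.83 and −0.23. In Cele2 it was −1.12 and −0.57, the latter just inside the limit. In Combo16 it was 0.06 as deposited and −0.60 at the same total, where 47 of 59 cells lay below the control median. Over the cells of a condition the CDK4 E-value went with the log2 total of the cell, with Pearson's r from 0.54 to 0.71 in the 6 conditions. These r values share the spike-in scale of each cell and are descriptions. CDK4 lies on chromosome 12 (57747727 to 57756013 on hg38, minus strand) and overlaps TSPAN31 on the other strand, whose mean E-value was between 0.34 and 1.06. The RefSeq start used for its upstream window lies within this longer GENCODE record.

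CCNE1, the E cyclin, was detected in 34 of 46 control cells (73.9%, 58.9 to 85.7%). Its E-value had a median of 2.50 in control cells (range 0.00 to 5.21), 0.82 and 0.00 in Pac16 and Pac48, 2.01 and 1.47 in Cele2 and Cele16, and 3.61 in Combo16. The highest cell was at 6.41 in Combo16, and every range began at 0.00. In Pac48, 24 of 53 cells held CCNE1 (45.3%, 31.6 to 59.6%).

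The mean of CCNE1 was 2.21 ± 1.68 in the control, 1.48 ± 1.61 and 1.44 ± 1.77 in Pac16 and Pac48, 1.64 ± 1.63 and 1.43 ± 1.41 in Cele2 and Cele16, and 2.65 ± 2.12 in Combo16. The differences were −0.73, −0.77, −0.57, −0.78 and 0.44 in that order, and at the same total −0.30, −0.45, −0.25, −0.06 and −0.00. None of these passed the limit at the same total. Among the cells in which it was detected, the median was 2.84 in the control, 2.71 and 3.06 in Pac16 and Pac48, 2.89 and 2.39 in Cele2 and Cele16, and 3.99 in Combo16. The share of Pac48 cells with CCNE1 was below that of the control, with intervals that overlapped, while the cells that had it had a higher median than the control cells that had it, as deposited.

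CDK2, the kinase partner of cyclin E, had a mean E-value below that of the control in all 5 treatments on both scales, though in Combo16 its mean linear level as deposited was 1.42 times that of the control. Its E-value had a median of 2.05 in control cells (range 0.00 to 3.83) and a median of 0.00 in each treatment. The highest cells were 3.68 and 3.62 in Pac16 and Pac48, 3.70 and 3.33 in Cele2 and Cele16, and 5.44 in Combo16. All 5 treatments thus overlapped the control range, and in Combo16 single cells exceeded it.

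The mean of CDK2 was 1.84 ± 1.27 in the control, 0.65 ± 1.06 and 0.96 ± 1.31 in Pac16 and Pac48, 0.75 ± 1.10 and 0.57 ± 0.99 in Cele2 and Cele16, and 1.61 ± 1.81 in Combo16. The differences were −1.18, −0.87, −1.08, −1.26 and −0.22, and at the same total −0.82, −0.54, −0.78, −0.75 and −0.42. Differences in Pac16 and in Cele2 and Cele16 therefore passed the limit on both scales, though each was smaller than 1 SD of the control cells. In the same order of treatments, 4.08%, 6.84%, 3.46%, 4.58% and 10.7% of the listed genes had a lower difference at the same total. These ranks too depend on level, since genes near 0 in the control had little room to fall.

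CDK2 was detected in 35 of 46 control cells (76.1%, 61.2 to 87.4%), 24 of 56 cells in Pac16 (42.9%, 29.7 to 56.8%), 21 of 53 in Pac48 (39.6%, 26.5 to 54.0%), 29 of 63 in Cele2 (46.0%, 33.4 to 59.1%), 18 of 61 in Cele16 (29.5%, 18.5 to 42.6%), and 29 of 59 cells in Combo16 (49.2%, 35.9 to 62.5%). The share was below that of the control in every treatment. The intervals count cells of 1 sample per condition, so whether they overlap is no test. How many of all genes had a like fall is not given here. The median number of genes detected was also lower than in the control in every treatment, and the median total in the 4 single-drug groups. Their part in this share was not tested, since without read counts the cells could not be thinned to a common depth. Both CCNE1 and CDK2 were detected in 27 of 46 control cells, 15 of 56 and 14 of 53 cells in Pac16 and Pac48, 22 of 63 and 12 of 61 cells in Cele2 and Cele16, and 23 of 59 cells in Combo16. The ratio of the mean linear levels of CDK4 and CDK2 was 16.1 in the control, 18.0 and 19.2 with paclitaxel, 23.6 and 24.1 with celecoxib, and 13.4 in Combo16.

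**Figure D2:**
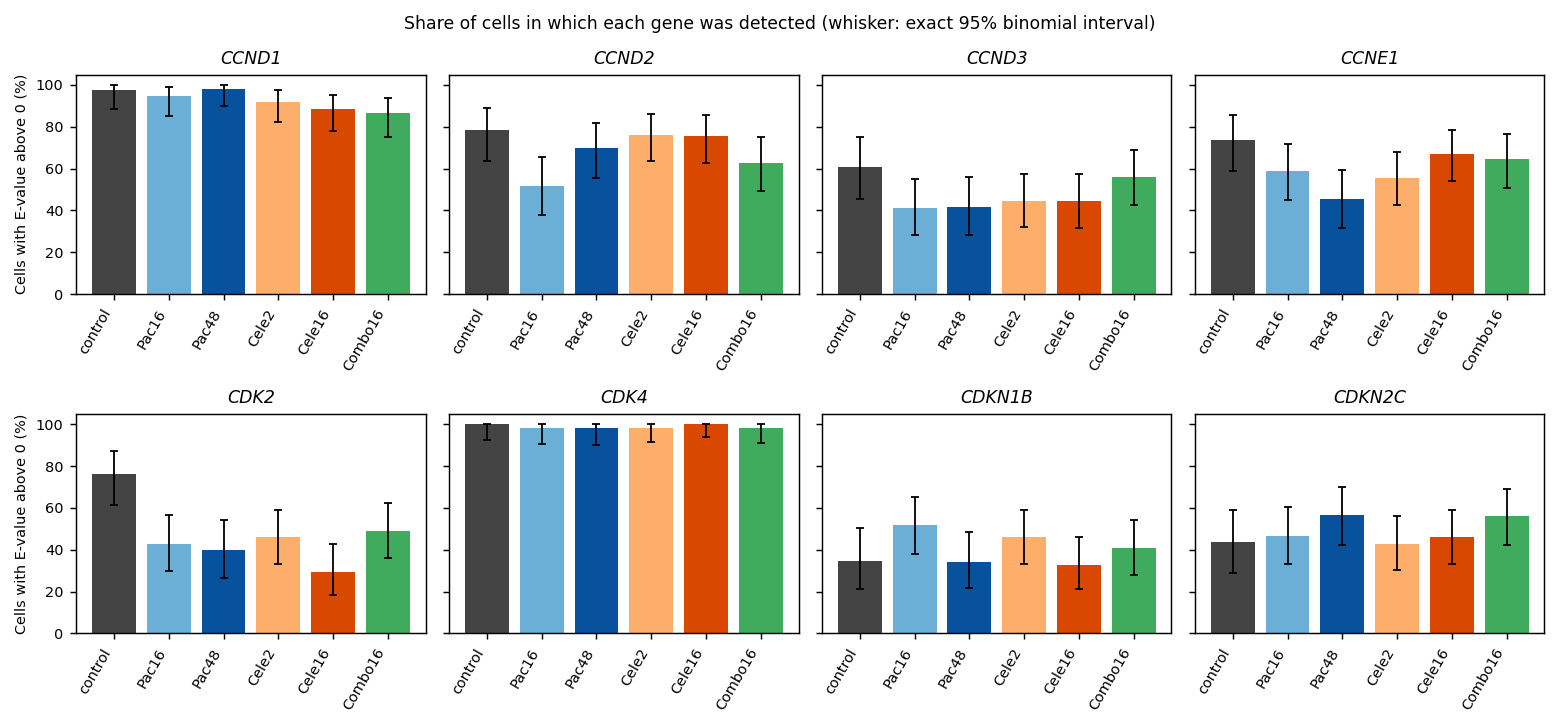
Share of cells with an E-value above 0 (bars, in percent) for the 8 genes by condition, with exact 95% binomial intervals (whiskers). CDK2 stood at 76.1% in the control and between 29.5% and 49.2% in the treatments, whereas CDK4 stayed above 98% throughout.

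The 2 inhibitors had the lowest control levels of the set. CDKN1B, which encodes p27, was barely expressed, with a mean E-value of 0.27 ± 0.51 in the control, 0.43 ± 0.65 and 0.23 ± 0.40 in Pac16 and Pac48, 0.45 ± 0.63 and 0.25 ± 0.41 in Cele2 and Cele16, and 0.65 ± 0.94 in Combo16. No difference in mean E-value passed the limit on either scale, and at the same total all 5 lay between 0.02 and 0.28. For a gene this low the ratio of linear means gave larger changes. The CDKN1B level was 1.72, 1.71 and 3.36 times that of the control in Pac16, Cele2 and Combo16 as deposited, but 0.73 and 0.80 times in Pac48 and Cele16. At the same total it was 2.70, 3.13, 2.36 and 2.35 times in Pac16, Cele2, Cele16 and Combo16, and 1.08 times in Pac48. How many of all genes had like ratios is not given here. The highest single cell, in Combo16, was at 3.08. CDKN1B was detected in 16 of 46 control cells (34.8%, 21.4 to 50.2%) and in 29 of 56 cells in Pac16 (51.8%, 38.0 to 65.3%).

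CDKN2C, which encodes p18, had a mean E-value of 0.95 ± 1.21 in the control and between 0.77 and 0.99 under each single drug. In Combo16 the mean was 1.66 ± 1.66 and the median 1.91, against 0.00 in control cells. That difference of 0.72 was the only one past the limit upward among the 8 genes on the deposited scale, and it was 0.37 at the same total. CDKN2C was detected in 20 of 46 control cells (43.5%, 28.9 to 58.9%) and in 33 of 59 cells in Combo16 (55.9%, 42.4 to 68.8%). The summed mean linear level of the D cyclins was 10.9 times that of the 2 inhibitors in the control, 5.28 and 9.74 times in Pac16 and Pac48, 7.63 and 5.83 times in Cele2 and Cele16, and 5.48 times in Combo16.

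When the conditions were ordered by mean, no neighbouring pair in the order differed by more than 1 SD over cells, for any of the 8 genes on either scale. The widest such gap was that of CDK4 between the control and Pac48, 0.83 on the deposited scale. Conditions farther apart in the order could differ by more, as CDK4 did in Pac16, Cele2 and Cele16 (−1.96, −1.26 and −1.63 control SDs as deposited).

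The counts over the set are read against those of all genes. In Pac16, 6 of the 8 genes were lower and 0 higher on the deposited scale, where 37.3% of all 9664 genes were lower and 0.0931% higher. Rescaled to the same total, 3 were lower (CCND3, CDK2 and CDK4) and 0 higher, against 10.0% and 1.40% of all genes. The median difference of the 8 genes was −0.82 as deposited and −0.32 at the same total, beside −0.41 and −0.07 for all genes. The shares were larger among genes with a control mean above 1, which 6 of the 8 had. As deposited 59.1%, 42.5%, 41.1%, 69.5% and 2.80% of them were lower in Pac16, Pac48, Cele2, Cele16 and Combo16, and at the same total 18.1%, 10.5%, 14.7%, 14.3% and 10.5%.

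In Pac48, 4 of the 8 genes were lower (CCND3, CCNE1, CDK2 and CDK4) and 0 higher as deposited, against 26.6% and 0.921% of all genes. The same total left 0 lower and 0 higher, against 5.77% and 3.28%. No test was made between the 2 times of paclitaxel, and the median difference of the 8 genes from the control was −0.46 as deposited and −0.11 at the same total. CCND1, CCND2 and CDK4 had higher means in Pac48 than in Pac16 by 0.75, 0.65 and 0.92, and by 0.68, 0.61 and 0.75 at the same total, where the median of all genes was 0.11 and 0.07. Index blocks were formed here by cutting the numbers that end the cell descriptions into runs of 96. Whether such a block was a batch is not known. Pac16, Cele2 and Cele16 each fell in 1 block, and Combo16 in blocks 1 and 3. None of these blocks held a control cell, so in these treatments block and drug cannot be told apart. The 48 h cells came from 2 blocks. CDK4 had a mean of 4.61 over the 22 cells of block 2 and 5.22 over the 31 of block 4, and CCND1 had 2.84 and 3.42. All control cells also fell in block 4. The CDK4 difference from the control as deposited, −1.18 in block 2, was −0.58 in block 4 and there just inside the limit. At the same total it was −0.43 and −0.09. CDK2 differed by −1.06 and −0.74 as deposited, past the limit in both blocks. At the same total CDK2 differed by −0.71 in block 2 and by −0.43, inside the limit, in block 4.

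In Cele2, 4 of the 8 genes were lower (CCND1, CCND3, CDK2 and CDK4) and 0 higher as deposited, against 25.7% and 1.12% of all genes. With totals made equal, 1 was lower (CDK2) and 0 higher, against 8.11% and 3.31%. In Cele16, 5 were lower (CCND1, CCND3, CCNE1, CDK2 and CDK4) and 0 higher, against 43.9% and 0.383%. With totals made equal, 1 was lower, again CDK2, and 0 higher, against 7.95% and 7.38%. The median difference of the 8 genes was −0.62 in Cele2 and −0.86 in Cele16 as deposited, and −0.24 and −0.09 at the same total.

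In Combo16, 0 of the 8 genes were lower and 1 higher (CDKN2C) as deposited, against 1.76% and 30.4% of all genes. The same total gave 2 lower (CCND1 and CDK4) and 0 higher, against 5.79% and 5.95%. The median difference of the 8 genes was 0.33 as deposited, equal to that of all genes to this precision, and −0.00 at the same total. The call of CDKN2C as deposited rested on the 34 cells of index block 1, with a difference of 0.83, against 0.56 in the 25 cells of block 3. Neither block held a control cell. CCNE1 as deposited differed by 0.25 in block 1 and by 0.70, past the limit, in block 3. At the same total CDKN2C differed by 0.43 and 0.29 and CCNE1 by −0.15 and 0.20, all inside the limit. The plot of the differences sets both scales side by side.

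**Figure D3:**
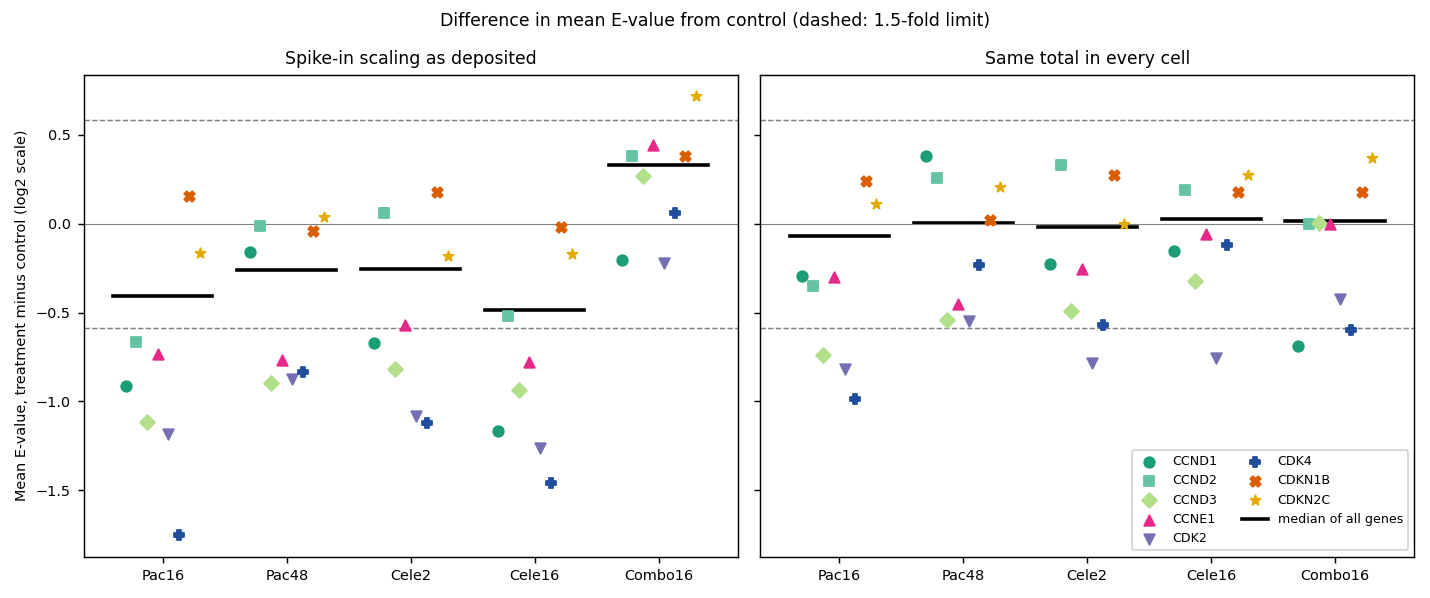
Treated minus control mean E-value (vertical axis, log2 scale) of the 8 genes under each treatment, as deposited (left) and at the same total per cell (right), with the median of all 9664 genes (black bars) and the 1.5-fold limit (dashed). CDK4 in Pac16 was lowest on both sides, at −1.75 and −0.99, and CDK2 was below 0 in every treatment.

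The 16 h samples form a layout of control, each drug and both. On the deposited scale the Cele16 mean was below the control for all 8 genes, from −1.46 for CDK4 to −0.02 for CDKN1B. Set against Pac16, the Combo16 mean was above it for all 8, from 0.22 for CDKN1B to 1.81 for CDK4. The medians of all genes were −0.48 and 0.80 for these steps, and 6035 of 9664 genes passed the limit upward in the latter. For CCND1, CCND3, CCNE1, CDK2 and CDK4, both steps passed the limit in opposite directions, as they did for 37.5% of all genes. These members had control means above 1, and of all such genes 69.5% were lower in Cele16. The opposite steps held for 0 of the 8 and 0.569% of all genes at the same total.

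The authors assigned each cell to a transcriptomic state with the deposited values, so the states are no independent grouping and the following is a description. In Pac16, 23 cells were assigned to the Control state and 31 to the Suppressive state. CCNE1 had a mean E-value of 2.17 in the former and 0.91 in the latter, and 2.11 and 1.15 at the same total. CDK4 had 4.44 and 3.60, and 4.33 and 4.22 at the same total. In Cele2, CDK2 had a mean of 1.23 in 26 cells of the Control state and 0.34 in 33 cells of the Suppressive state, and 1.09 and 0.38 at the same total. Other members were higher in the Suppressive state. CCND1 in Pac48 had 3.14 in 28 Control state cells and 3.23 in 25 Suppressive cells (2.94 and 3.65 at the same total). In the same order, CCND2 in Cele2 had 1.72 and 1.78 (1.54 and 2.02), and CDKN2C in Pac16 had 0.59 and 0.83 (0.56 and 1.06).

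After the mean of each condition was subtracted, Pearson's r at the same total lay between −0.16 and 0.18 for the 28 pairs over 338 cells. Within single conditions it ran from −0.32 (CCND1 and CDK2 in Pac48) to 0.48 (CDK2 and CDK4 in the control). The S phase score, the mean of 42 S phase genes distributed with Seurat and with no member among them, had its highest r with CDK2 (r = 0.39) and then CCNE1 (r = 0.23). The r of CDK2 was between 0.32 and 0.47 in each of the 6 conditions, and its r with the score of 52 G2/M genes over all cells was 0.28. CCND1 had r = 0.02 with the S score over all cells, but −0.28 in the control, −0.40 in Pac48 and 0.33 in Combo16. The cells of a condition are not replicates, and a gene absent from a cell may have been missed, so these coefficients describe the cells. The genes most like each member detected in at least 50% of all cells, among 6548 genes compared, had r of at most 0.30 (GNPDA1 with CDK4, NXT1 at 0.28 with CCNE1, UBAC2 at 0.26 with CCND1 and CAPN2 at 0.23 with CCND2), which in sparse values is no finding.

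**Figure D4:**
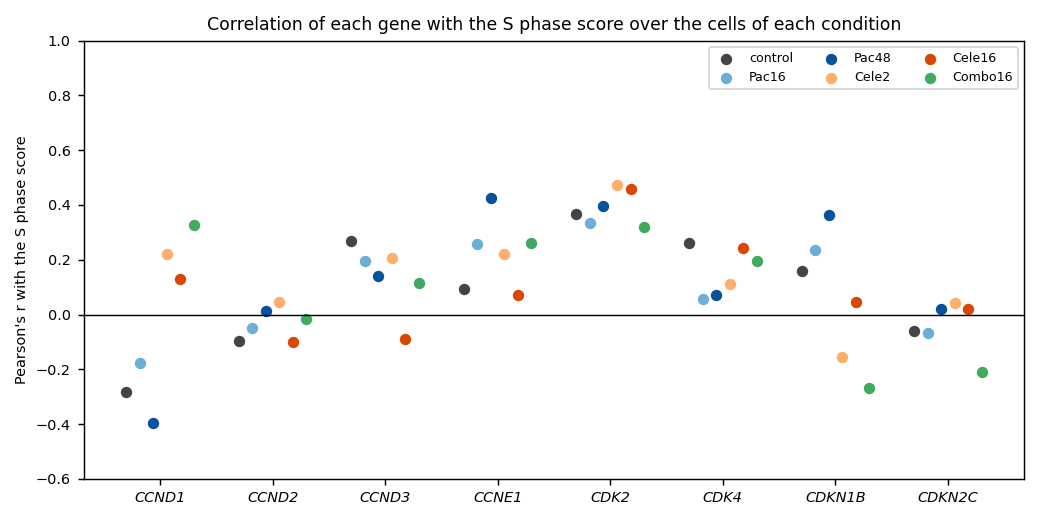
Pearson's r (vertical axis) between each gene and the S phase score over the cells of each condition (points), both at the same total per cell. CDK2 lay between 0.32 and 0.47 in all 6 conditions, whereas CCND1 ran from −0.40 to 0.33.

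The wider pathway was read from 5 lists of its other genes, with counts in the order Pac16, Pac48, Cele2, Cele16 and Combo16. Beside them stand the shares of all genes given above, which for genes lower were 37.3%, 26.6%, 25.7%, 43.9% and 1.76% as deposited and 10.0%, 5.77%, 8.11%, 7.95% and 5.79% at the same total. For genes higher these shares were 0.0931%, 0.921%, 1.12%, 0.383% and 30.4% as deposited. At the same total they were 1.40%, 3.28%, 3.31%, 7.38% and 5.95%. The 30 genes that E2F switches on at the G1/S boundary were all listed. At the same total 10 and 14 were lower in Pac16 and Pac48, 11 and 17 in Cele2 and Cele16, and 15 in Combo16, and 0 were higher in each. As deposited 22, 24, 16, 29 and 11 were lower. Their median difference at the same total was −0.43, −0.54, −0.33, −0.85 and −0.57. RRM2, a subunit of ribonucleotide reductase, had a mean E-value of 4.21 ± 1.77 in the control and 0.85 ± 1.33 in Cele16, a difference of −3.36 (−2.61 at the same total). In Combo16 RRM2 differed by −2.00 (−2.13). TK1, thymidine kinase, differed by −2.10 (−1.64) in Pac48, and MCM7, of the replicative helicase, by −1.69 (−1.01) in Pac16. CCNA2, the cyclin A of S phase, differed by −1.85 (−1.44) in Cele2.

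Of the other CDK inhibitors, 5 of 6 were listed and 2 passed the limit on both scales, in opposite directions. CDKN1A (p21), a p53 target, had a mean of 0.95 ± 2.06 in the control, 2.81 ± 2.54 in Pac48 and 1.95 ± 2.08 in Cele16, differences of 1.86 and 1.00 on the deposited scale and past the limit in the same direction at the same total (1.96 in Pac48). CDKN3, a phosphatase of CDK proteins that peaks in dividing cells, had 4.68 ± 1.97 in the control and was lower in all 5 treatments on both scales, with a mean of 1.77 ± 2.11 in Cele16 (−2.91, and −2.09 at the same total).

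Among the genes that activate the kinases or turn over their inhibitors, 20 of 23 were listed, and at the same total 4, 3, 4, 5 and 2 were lower and 0 higher. As deposited 12, 10, 9, 15 and 0 were lower, and 6 were higher in Combo16, where 30.4% of all genes were higher. SKP2, the ubiquitin ligase subunit that marks p27, had 2.75 ± 1.17 in the control and differed by −1.25 (−0.80 at the same total) in Pac48 and by −1.83 (−1.06) in Cele16. CKS1B, its cofactor, differed by −1.25 (−0.63) in Pac48. CDK7, of the kinase that activates CDK2 and CDK4, differed by −1.36 (−0.84) in Cele2. Of the pocket proteins and E2F factors 12 of 13 were listed, and at the same total 3, 1, 2, 0 and 2 were lower and 1 was higher, in Cele2. As deposited 4, 5, 4, 7 and 0 were lower, and 1 was higher in Combo16. E2F4 differed by −1.83 (−1.33) and E2F5 by −1.22 (−0.81) in Pac16. Of 25 genes of mitogen signalling 19 were listed, and 5, 1, 3, 2 and 2 were lower and 0 higher at the same total. As deposited 9, 8, 9, 11 and 2 were lower, and 2 were higher in Combo16. FOS, an immediate response gene, had 4.46 ± 2.92 in the control and 1.31 ± 1.76 in Pac16 (−3.15, and −2.59 at the same total), and MYC differed by −1.04 (−0.63) in Cele2.

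**Figure D5:**
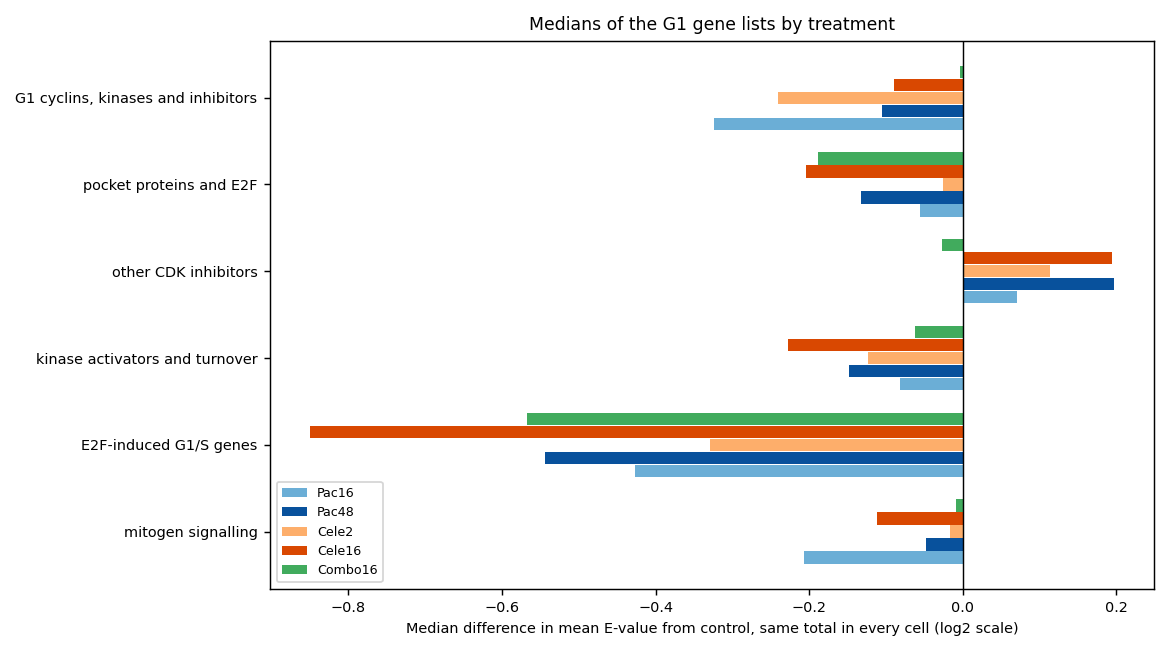
Median over genes of the treated minus control mean E-value at the same total per cell (horizontal axis, log2 scale) for the 8 G1 genes and 5 lists of other genes of the pathway, by treatment (bar colour). The E2F-induced genes had medians from −0.33 to −0.85, against −0.32 to −0.00 for the G1 genes.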

How the data were processed

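Single A2780 cells were profiled by Smart-seq2 on the Fluidigm C1. Per the labels and the study's methods, the authors trimmed reads with Trim Galore, aligned them with Bowtie2 to hg38 transcripts (GENCODE 28) plus 3 spike-in RNAs, took TPM values from RSEM 1.3.0, scaled each cell to its highest spike-in, and removed cells with low housekeeping genes. What the authors deposited are log2 values, log2(N/10 + 1), to 3 decimals, for 9664 genes and 338 of the 372 cells listed. A state assigned by the authors to each cell is also deposited.

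Cells were grouped by their labels. Linear values N were recovered from the E-values, and mean E-values were compared with the control as deposited and with every cell rescaled to the median total. A gene was called past log2 of 1.5, and no test was made, since every condition is 1 sample. The steps were tested on simulated data. The alternatives were the same total, means of linear values, a smaller pseudocount (1, not 10), medians, each index block alone, cells without wells noted as 0 cells or debris, and others added after seeing the data. The members and lists were chosen with earlier results of these data known. All members were named, and from each list, up to 3 genes per treatment with the largest differences past the limit on both scales, of which a part is printed. Genes not listed in the table, and doublets, were not analysed here. Coordinates are from GENCODE version 44 on hg38, which matched 9643 identifiers. Smart-seq2 keeps no strand, so overlapping genes on opposite strands cannot be told apart. The S and G2/M phase genes are those of Seurat 5.3.0, read in R 4.3.3. Values were computed in Python 3.11.15 (pandas 2.3.3, numpy 2.4.6, scipy 1.17.1) and drawn with matplotlib 3.10.9.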

Additional observations from a re-analysis of the deposited data

Results flagged for a closer look

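At 16 h, 5 genes moved past the limit in opposite directions when celecoxib was given to control cells and when it was given with paclitaxel, on the deposited scale. The step with paclitaxel minus the step without it was 1.88 for CCND1, 2.32 for CCND3, 1.95 for CCNE1, 2.22 for CDK2 and 3.27 for CDK4. The same quantity had a median of 1.33 over all 9664 genes, and 37.5% of them moved in the same opposite way. At the same total per cell the values were −0.24, 1.06, 0.35, 1.15 and 0.51, beside a median of 0.06. With 1 sample per condition the difference was not tested.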

How the results depend on the processing

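Counts of the 8 G1 genes past the limit changed with the scaling, the kind of mean and the limit. Genes lower went from 6 to 3 in Pac16, 4 to 0 in Pac48, 4 to 1 in Cele2 and 5 to 1 in Cele16 at the same total per cell, and from 0 to 2 in Combo16, where genes higher went from 1 to 0. The genes that moved in opposite directions with celecoxib went from 5 to 0. Linear means gave 1 gene higher in Pac16, 1 in Cele2 and 5 in Combo16, where 30.4% of all genes were higher by mean E-value as deposited. A pseudocount of 1 gave 1 lower and 2 higher in Combo16. Medians over cells gave 1 higher in Pac48, and 1 lower and 3 higher in Combo16. Other alternatives were chosen after seeing the data. Linear means at the same total gave 3 lower and 2 higher in Pac16 and 1 lower in Pac48, 2 lower and 1 higher in Cele2 and 1 lower and 2 higher in Cele16, and 1 lower and 2 higher in Combo16. They also turned the sign of CCNE1 (0.22) and CDK4 (0.0003) in Cele16. Cells with at least 5500 genes detected gave 2 higher in Combo16. A 2-fold limit gave 3 and 0 lower with paclitaxel, 2 and 3 lower with celecoxib and 0 higher in Combo16. Apart from mean E-values at the same total, shares of all genes under these alternatives are not given here. Their counts therefore describe the 8 genes alone. Of 312 single differences recomputed, 252 stayed inside or outside the limit as before, 58 crossed it, and CCNE1 and CDK4 in Cele16, called lower as deposited, took a positive sign inside it. Those that stayed include all 40 made without wells noted as 0 cells or debris. In Pac16, Pac48, Cele2 and Cele16 that step left every value as it was, so these could not change. The causes of the changes were not tested. No replicate culture is named to check these values. CCND3, CDK2, CDKN1B and CDKN2C were detected in under 50% of all cells, and with reads per cell not known, low depth and low expression cannot be told apart there.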
